A study of Rattus norvegicus with 23 samples.

Results

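The 9 genes described here build the calcium cycle and parts of the electrical coupling of the heart muscle cell: Atp2a2, Pln, Ryr2, Casq2, Hrc, Slc8a1, Cacna1c, Scn4b and Gja1. They were chosen by name, and all 9 were found among the 32552 gene identifiers of the deposited tables. Their RNA was measured by poly(A)-selected RNA sequencing in heart and kidney tissue of 13-week-old Sprague-Dawley rats, taken 4 weeks after surgery. Sham rats had sham surgery, NX rats a 5/6 nephrectomy, a standard way to produce chronic kidney disease, and AVF+NX rats the same nephrectomy plus an arteriovenous fistula in which the jugular vein was joined onto the side of the carotid artery. Sham numbered 3 hearts and 4 kidneys, and NX and AVF+NX 4 libraries each per organ. Which region of the heart was taken is not stated in the labels. No group had a fistula without nephrectomy, so the AVF+NX to NX comparison is the one that sets the fistula apart.

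In a heartbeat, calcium entering through the L-type channel (Cacna1c is its pore) opens the ryanodine receptor Ryr2, which releases calcium stored in the sarcoplasmic reticulum on the buffer Casq2. Relaxation follows as the pump SERCA2 (Atp2a2), which phospholamban (Pln) restrains, takes calcium back up, and as the exchanger NCX1 (Slc8a1) expels it. Hrc is a histidine-rich calcium-binding protein of the reticulum lumen, Scn4b an auxiliary subunit of voltage-gated sodium channels, and Gja1 encodes connexin 43, the main gap junction protein of the ventricle and also a protein of fibroblasts, vessels and other non-muscle cells.

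The promoters of Pln, Scn4b and Gja1 are shown because these are the members whose RNA passed the test against Sham in 1 of the organs, a choice made after those values were seen. Each run holds 250 bases before to 50 after the RefSeq start in build GRCr8, on the plus strand: chr20:33172244-33172543 for Pln, chr8:54343623-54343922 for Scn4b and chr20:36302314-36302613 for Gja1. Capitals mark the single match, read on the opposite strand 171 bases before the start of Gja1, to any of 3 motifs searched on both strands.
Pln: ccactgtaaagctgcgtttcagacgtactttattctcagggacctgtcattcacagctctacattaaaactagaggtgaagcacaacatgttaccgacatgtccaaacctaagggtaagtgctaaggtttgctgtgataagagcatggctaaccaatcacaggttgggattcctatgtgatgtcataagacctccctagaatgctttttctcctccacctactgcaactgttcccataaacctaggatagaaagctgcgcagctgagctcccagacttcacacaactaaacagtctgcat
Scn4b: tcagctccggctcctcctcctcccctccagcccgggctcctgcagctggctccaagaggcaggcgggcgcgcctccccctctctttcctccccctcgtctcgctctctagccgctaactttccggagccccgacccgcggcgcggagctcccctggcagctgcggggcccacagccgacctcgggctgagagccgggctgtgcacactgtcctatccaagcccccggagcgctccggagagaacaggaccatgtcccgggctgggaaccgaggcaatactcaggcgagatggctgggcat
Gja1: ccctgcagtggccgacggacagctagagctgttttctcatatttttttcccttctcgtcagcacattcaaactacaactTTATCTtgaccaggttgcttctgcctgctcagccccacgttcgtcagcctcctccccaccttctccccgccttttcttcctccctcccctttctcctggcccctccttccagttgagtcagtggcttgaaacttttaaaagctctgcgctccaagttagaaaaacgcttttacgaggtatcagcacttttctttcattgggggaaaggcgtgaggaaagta
The E-box searched, CACGTG, is found in 6.42% of 33469 rat promoters of this length. For the site of GATA factors, searched as AGATAA, the share is 11.6%. The MCAT element, searched as CATTCC, is found in 14.2%. The motifs share no overlapping matches in the 9 members, where GATA matched in Gja1 and MCAT in Cacna1c, and a match is a description of letters only. The 3 sequences also differ in base composition, with 45.0% G and C for Pln, 70% for Scn4b and 50.3% for Gja1.

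Libraries held 9069354 to 48079431 counts. Heart depth was uneven between groups, at 9894716 to 11866042 in Sham, 9605973 to 22679092 in NX and 11889483 to 48079431 in AVF+NX. The libraries also differed in an index of short structured RNAs, the mean scaled log2 CPM of 63 genes whose symbols are Rfam family numbers (the RF index). It was 0.680 to 0.717 in the 3 sham hearts and -0.784 to -0.174 in the 4 AVF+NX hearts, and it split the NX hearts into libraries 1 and 4 (0.986 and 0.547) and libraries 2 and 3 (-0.921 and -0.540). In heart the index and the AVF+NX against Sham contrast therefore cannot be told apart. Cardiomyocyte markers summed to 70600 to 88300 CPM (counts scaled to a common library size) in heart and 11.3 to 29.2 CPM in kidney, while proximal tubule markers summed to at most 2.44 CPM in heart, which matches the organ labels. Of 5 markers of atrial muscle, Sln and Myl7 averaged at most 0.498 and 25.7 CPM in any heart group, and Nppa 81.9 to 404 CPM. The 5 together summed to 73.3 to 151 CPM in Sham, 78.7 to 222 CPM in NX and 210 to 950 CPM in AVF+NX hearts. In bulk tissue, fewer cells of a type and less RNA per cell cannot be told apart.

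In sham hearts the calcium pump and its inhibitor stood far above the other members. Atp2a2 averaged 2033 ± 166 CPM per kilobase of exon (SD, n = 3) and Pln 1779 ± 60.6. Hrc (397 ± 21.8) and Casq2 (382 ± 42.5) formed the next level, and Gja1 (254 ± 33.6) and Ryr2 (251.1 ± 60.0) the one after. Slc8a1 followed at 87.0 ± 5.45, Scn4b at 41.8 ± 8.71 and Cacna1c at 28.6 ± 4.56 CPM per kilobase. Within the pairs Hrc and Casq2, Gja1 and Ryr2, and Scn4b and Cacna1c the levels lay within the spread of the libraries. In AVF+NX hearts the means of Pln (2562 ± 345, n = 4) and Atp2a2 (2209 ± 34.6) stood in the other order, as did those of Cacna1c (26.3 ± 1.89) and Scn4b (21.2 ± 2.72).

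In the coordinates of the deposited counts, whose build is not given in the sources used here, Pln (ENSRNOG00000000413) lies at chr20:34633157-34642904 on the plus strand, Scn4b (ENSRNOG00000026679) at chr8:49441106-49456279 on the plus strand, Gja1 (ENSRNOG00000000805) at chr20:37876650-37889089 on the plus strand and Slc8a1 at chr6:4258991-4520604 on the minus strand. Counts were summed over the exons of each gene, so that coding and untranslated parts are not separated.

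**Figure D1:**
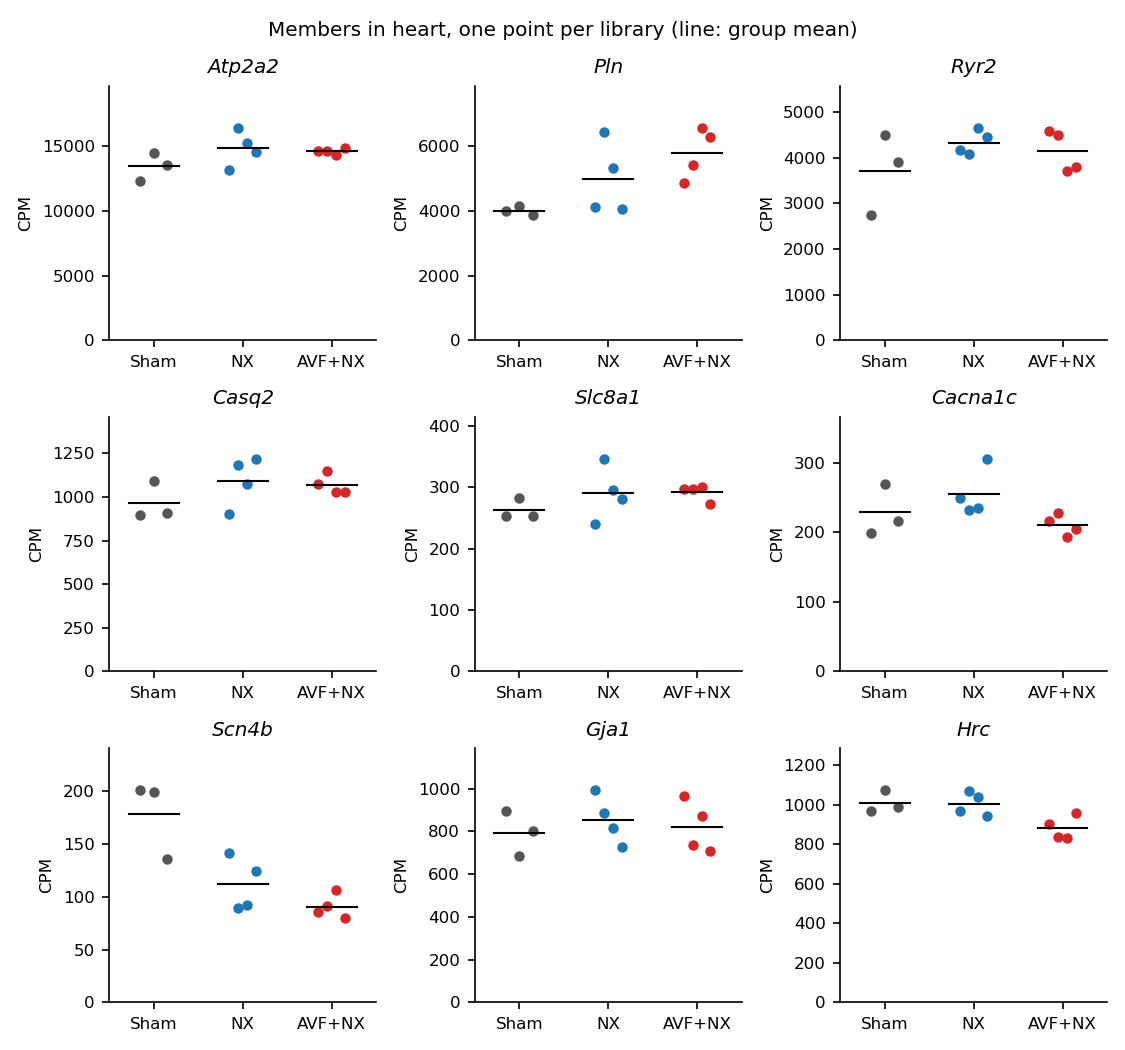
CPM (counts scaled within heart by TMM) of the 9 members, 1 point per library and a line at each group mean, for 3 Sham, 4 NX and 4 AVF+NX hearts. Pln lies above and Scn4b below all sham hearts in the 4 AVF+NX hearts, while Atp2a2, Ryr2, Casq2, Slc8a1, Cacna1c and Gja1 overlap between these groups.

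In AVF+NX hearts, set against sham hearts, Pln was 1.44-fold higher and Scn4b 1.97-fold lower, and the other 7 members did not pass the test. That is 2 of 9 members, against 34.1% of the 12794 genes tested in heart (adjusted p below 0.05), so the members were not called more often than genes in general. Their median log2 fold change was 0.12, beside 0.01 for all genes tested.

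Phospholamban had 4001, 4151 and 3880 CPM in the 3 sham hearts and 4869, 5405, 6550 and 6276 CPM in the 4 AVF+NX hearts. The sham libraries lay close together and every AVF+NX library was higher. The log2 fold change was 0.53 (SE 0.16, adjusted p = 0.0206, edgeR's quasi-likelihood test with Benjamini-Hochberg adjustment). NX hearts had 4125, 6428, 5322 and 4051 CPM. Libraries 2 and 3, the NX hearts with a negative RF index, reached the AVF+NX range, and libraries 1 and 4 stayed in the sham range. With the RF index as a covariate the AVF+NX against Sham value of Pln was 0.06 (adjusted p = 0.803), and with the log2 total count it was 0.36 (adjusted p = 0.348). The call also ended without AVF+NX library 3 or any 1 of the sham libraries (adjusted p = 0.0519 to 0.0692).

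Scn4b, the sodium channel subunit, had 200.8, 199.3 and 135.6 CPM in sham hearts and 85.6, 91.1, 106.6 and 79.5 CPM in AVF+NX hearts. The groups did not overlap, although sham library 3 lay well below the other sham libraries. The log2 fold change was -0.97 (SE 0.18, adjusted p = 0.00298, edgeR), and it ranged from -1.13 to -0.88 with each library left out in turn, with every adjusted p at most 0.0167. NX hearts had 141.5, 89.3, 92.6 and 124.5 CPM, overlapping sham library 3. With the RF index as a covariate the AVF+NX against Sham value was -0.59 (adjusted p = 0.141), and with the log2 total count it was -0.89 (adjusted p = 0.175).

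**Figure D2:**
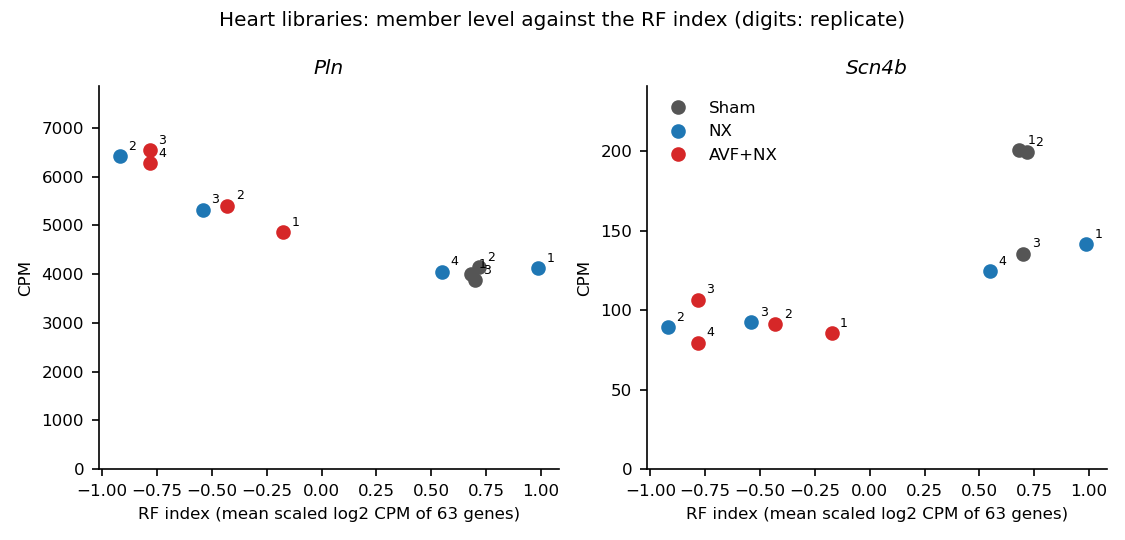
CPM of Pln (left) and Scn4b (right) against the RF index in the 11 heart libraries, coloured by group, with the replicate number beside each point. Sham hearts sit at 0.680 to 0.717, and the NX hearts fall on both sides of 0, with Pln at 6428 and 5322 CPM in the libraries below 0 and 4125 and 4051 CPM in those above.

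RNA of cell type markers differed in the same comparison, where 34.1% of all genes were called. It cannot be told apart there from the difference in the RF index. Of 11 cardiomyocyte markers 5 fell and none rose in AVF+NX against sham hearts, and their sum was 70600 to 81200 CPM against 77200 to 87600 CPM, with none at 0. Fibroblast markers rose in 5 of 6 cases (summed 2310 to 3620 CPM against 1460 to 1940 CPM) and endothelial markers in 4 of 6 (860 to 1040 against 645 to 791 CPM). Of 7 macrophage markers 2 rose and 1 fell, and of 6 smooth muscle and pericyte markers 1 rose. Counted against the cardiomyocyte markers of the same library, Pln stood at 63.9 to 92.7 counts per 1000 marker counts in AVF+NX and 46.9 to 51.8 in sham hearts. For Scn4b the same ratios were 0.979 to 1.51 and 1.64 to 2.60. Both sets of ratios stayed apart, at log2 differences of 0.63 and -0.85, and so did those of Atp2a2 at 0.23 (two-sided exact permutation p = 0.0286 each, the smallest that 4 against 3 libraries can give, and 0.257 adjusted over 27 such ratios). The ratios of Casq2 (12.6 to 14.7 against 11 to 12.5) and Slc8a1 (3.35 to 4.25 against 3.06 to 3.28) did not overlap either, each at a log2 difference of 0.26 (exact permutation p = 0.0571, adjusted p = 0.257). The marker sums ran lower in AVF+NX than in sham hearts, which raises the ratio of any gene. By CPM, Atp2a2, Casq2 and Slc8a1 differed by 0.12, 0.14 and 0.15 on the log2 scale, and the groups overlapped. How many of all genes stay apart as ratios to these markers was not tested. Of 4 atrial markers tested 1 rose, the stress hormone gene Nppa, at 404 against 81.9 CPM. Beyond these ratios the part of other cell types in the results was not tested.

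The pump itself, Atp2a2, had 12300, 14480 and 13590 CPM in sham hearts and 14620, 14660, 14320 and 14880 CPM in AVF+NX hearts, groups that overlapped. Its log2 difference was 0.12 (SE 0.09, adjusted p = 0.338, edgeR). The AVF+NX hearts lay very close together, with a coefficient of variation of 1.58% against 8.15% in sham hearts.

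On the release side, Ryr2 had 2754, 4502 and 3906 CPM in sham hearts, 4165, 4081, 4643 and 4445 CPM in NX hearts and 4577, 4504, 3710 and 3798 CPM in AVF+NX hearts. Sham library 1 was the lowest of all, and the groups overlapped. Casq2, the calcium buffer, had 899, 1091 and 911 CPM in sham and 1073, 1147, 1030 and 1026 CPM in AVF+NX hearts. Their log2 differences between AVF+NX and Sham were 0.16 (SE 0.14, adjusted p = 0.409) and 0.14 (SE 0.11, adjusted p = 0.325) by edgeR.

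Hrc, the luminal calcium-binding protein, had 969, 1072 and 987 CPM in sham hearts and 905, 839, 833 and 960 CPM in AVF+NX hearts. Every AVF+NX library was below every sham library, but the log2 difference of -0.19 (SE 0.09) did not pass (adjusted p = 0.0974, edgeR). Exons of Hrc overlap those of Ppfia3 on the other strand. Ppfia3 had 283 counts over all libraries, and the strand setting of the counting is not given in the sources used here.

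At the cell membrane, Slc8a1 had 253.6, 281.8 and 253.0 CPM in sham hearts and 297, 297, 300.0 and 272 CPM in AVF+NX hearts, with AVF+NX library 4 inside the sham range (log2 0.15, SE 0.11, adjusted p = 0.299, edgeR). Cacna1c had 199, 269 and 217 CPM in sham hearts, 249.5, 231.5, 234.9 and 304.8 CPM in NX hearts and 216, 228.0, 193 and 205 CPM in AVF+NX hearts. AVF+NX hearts were below every NX heart for this channel, yet the log2 difference of -0.28 (SE 0.11) did not pass (adjusted p = 0.183, edgeR). Gja1 had 895.5, 686 and 803 CPM in sham hearts and 967, 736, 870 and 708 CPM in AVF+NX hearts, and the groups overlapped (log2 0.05, SE 0.14, adjusted p = 0.811, edgeR).

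Set against sham hearts, NX hearts gave 0 of 9 members and 0.00% of all genes called by edgeR. Unadjusted, 2662 genes had p below 0.05, and DESeq2 called 344. Scn4b came closest among the members, with -0.68 on the log2 scale (SE 0.18, adjusted p = 0.151, edgeR). It was called by DESeq2 (adjusted p = 0.0245) and by edgeR without NX library 1 (adjusted p = 0.0412). NX hearts ran from 13140 to 16390 CPM for Atp2a2, 901 to 1215 CPM for Casq2, 941 to 1067 CPM for Hrc, 240 to 345 CPM for Slc8a1 and 728 to 992 CPM for Gja1, and overlapped Sham for all 9 members. The other members lay between -0.01 for Hrc and 0.31 for Pln, and the members' median was 0.15 beside -0.01 for all genes.

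Between AVF+NX and NX hearts, 0 of 9 members and 0.336% of all genes were called. The members' values ran from -0.30 for Scn4b (SE 0.17, adjusted p = 0.314) to 0.21 for Pln (SE 0.14, adjusted p = 0.397) by edgeR, with a median of -0.06. Hrc stood at -0.18 (SE 0.08, adjusted p = 0.206). The 3 comparisons of an organ share samples, so their values are not independent of each other.

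In the authors' deposited table for AVF+NX against Sham in heart, Pln (log2 0.53, adjusted p = 1.22e-05) and Scn4b (log2 -0.98, adjusted p = 7.14e-10) were likewise the members below an adjusted p of 0.05. The authors' deposited table for NX against Sham in heart gives Scn4b a log2 fold change of -0.66 and an adjusted p of 0.065.

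**Figure D3:**
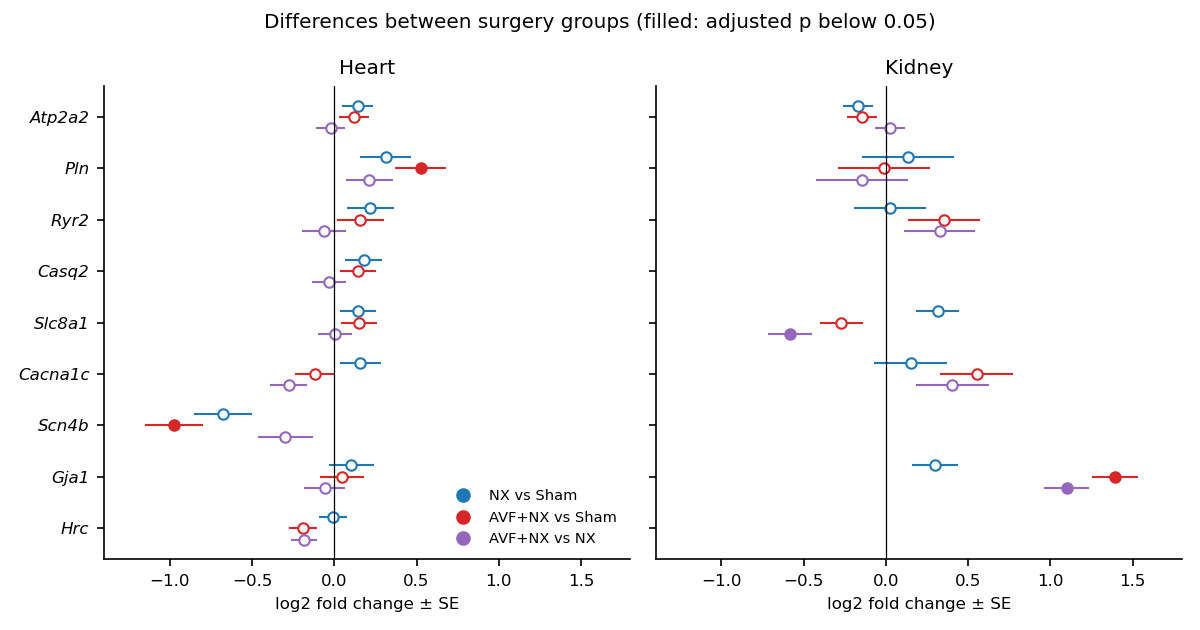
Log2 fold changes with standard errors of the members in the 3 comparisons within heart (left) and kidney (right), filled where the adjusted p was below 0.05. Filled points are Pln (0.53) and Scn4b (-0.97) in heart AVF+NX vs Sham, Gja1 in both kidney comparisons with AVF+NX (1.39 and 1.10) and Slc8a1 in kidney AVF+NX vs NX (-0.58). Casq2, Scn4b and Hrc were not tested in kidney.

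Ratios between functional partners were compared per kilobase within each heart. The Pln to Atp2a2 ratio, inhibitor to pump, was 0.956, 0.842 and 0.838 in sham hearts, 0.922, 1.152, 1.023 and 0.816 in NX hearts and 0.978, 1.083, 1.343 and 1.239 in AVF+NX hearts. AVF+NX hearts were all above sham hearts, by 0.39 on the log2 scale (two-sided exact permutation p = 0.0571, adjusted p = 0.228 over 12 ratio tests). The Hrc to Casq2 ratio was 1.07, 0.977 and 1.08 in sham hearts and 0.838, 0.727, 0.803 and 0.930 in AVF+NX hearts, lower in every library (log2 -0.34, exact permutation p = 0.0571, adjusted p = 0.228). The Ryr2 to Cacna1c ratio was 7.46, 9.03 and 9.72 in sham hearts and 11.4, 10.7, 10.4 and 9.99 in AVF+NX hearts (log2 0.29, exact permutation p = 0.0286, the smallest possible here, adjusted p = 0.228). The exchanger to pump ratio, Slc8a1 to Atp2a2, was 0.040 to 0.046 in all 11 hearts. None of the 12 ratio tests passed after adjustment.

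Over the 11 heart libraries, the genes whose centred log2 CPM lay nearest to Pln were Atf2, a transcription factor, St3gal6, a sialyltransferase, and Tapt1, with root mean square differences of 0.066, 0.074 and 0.075, against a median of 0.357 over 11259 genes. Nearest to Scn4b were Bola1, Zfp513 and Pym1, with differences of 0.123, 0.142 and 0.161 against a median of 0.504. Genes were picked here for the smallest of 11259 differences, so their place below the median follows from the choice and is no test. In the order named, those near Pln differed between AVF+NX and Sham by 0.52, 0.40 and 0.47 on the log2 scale. Those near Scn4b differed by -1.08, -1.03 and -0.79. This contrast cannot be told apart from the RF index in heart.

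Among further genes of the calcium store, AVF+NX hearts had 2 higher and 3 lower of 18 tested (median log2 0.03). Jph2, a junctophilin that holds the cell membrane close to the reticulum, averaged 352 ± 26.9 CPM (n = 4) against 601.5 ± 35.2 CPM in sham hearts (n = 3), a 1.71-fold fall (log2 -0.77, adjusted p = 0.00219, edgeR). The counter-ion channel gene Tmem38a fell (log2 -0.38, adjusted p = 0.0197, edgeR), and the IP3 receptor gene Itpr2 and the junctional gene Asph rose (log2 0.48 and 0.47, adjusted p = 0.0134 and 0.0141). With 1 library left out, Tmem38a lost its call in 4 of 7 fits and Itpr2 and Asph in 1 of 7 each. Asph also lost it with the length trend removed. In NX hearts Jph2 and Asph had log2 values of -0.39 and 0.37 against Sham (adjusted p = 0.171 and 0.177), with 0 of 18 called.

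Of 23 other membrane calcium channels, pumps and exchangers 2 rose and 7 fell in AVF+NX against sham hearts (median 0.06). The store-operated channel Orai1 (log2 -0.62, adjusted p = 0.00644), the channel subunit Cacng6 (log2 -0.77, adjusted p = 0.00802), the L-type channel inhibitor Rrad (log2 -0.76, adjusted p = 0.0129) and the T-type channel Cacna1g (log2 -0.85, adjusted p = 0.0142) fell by edgeR. Cacna1g was low throughout, at 14.3 ± 4.61 CPM in sham hearts. Rrad and Cacna1g each lost the call in 1 of 7 fits with 1 library left out. Against NX hearts, Cacna1g and Rrad had log2 values of -0.58 and -0.47 (adjusted p = 0.155 and 0.179), and 0 of 23 passed.

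Calcium signalling regulators gave 3 higher and 3 lower of 21 (median 0.17). The phosphatase subunit Ppp1ca (log2 -0.56, adjusted p = 0.00395), the catalytic subunit of protein kinase A, Prkaca (log2 -0.62, adjusted p = 0.00446), and the calmodulin gene Calm2 (log2 -0.52, adjusted p = 0.00543) fell, and Ppp1r3a, a muscle targeting subunit of the phosphatase, rose (log2 0.42, adjusted p = 0.0105) by edgeR. Ppp1r3a lost its call in 1 of 7 fits with 1 library left out. Protein kinase A and protein phosphatase 1 set the phosphorylation of phospholamban, which RNA counts do not measure. Of 8 mitochondrial calcium genes 1 rose, Mcub, an inhibitory subunit of the uniporter, at 1.19 ± 0.438 against 0.316 ± 0.196 CPM (log2 1.83, adjusted p = 0.0218, edgeR). The mitochondrial list's median was -0.13.

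Sodium channels and transporters gave 3 higher and 7 lower of 20 (median 0.13). Scn3a, a channel gene better known from neurons, rose from 2.82 ± 0.463 to 5.10 ± 0.891 CPM (log2 0.88, adjusted p = 0.00876, edgeR).

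Of 14 other gap junction and intercalated disc genes 3 rose and none fell (median 0.11), while Gja1 stayed at 0.05. These were the scaffold Tjp1, which binds connexin 43 (log2 0.37, adjusted p = 0.0147), beta-catenin, Ctnnb1 (log2 0.33, adjusted p = 0.0287), and the desmosomal cadherin Dsc2 (log2 0.57, adjusted p = 0.0367), by edgeR. With 1 library left out, Tjp1 lost its call in 1 of 7 fits, Ctnnb1 in 3 of 7 and Dsc2 in 5 of 7. Tjp1 and Dsc2 also lost it with the length trend removed. The shares called in these lists stand beside 34.1% of all genes. A covariate for the RF index or the log2 total count ended the calls of all 21 genes that the naming rule picked from the lists in this comparison, and left 179 and 2 of all genes called. None of the genes in these lists was called in the other heart comparisons.

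**Figure D4:**
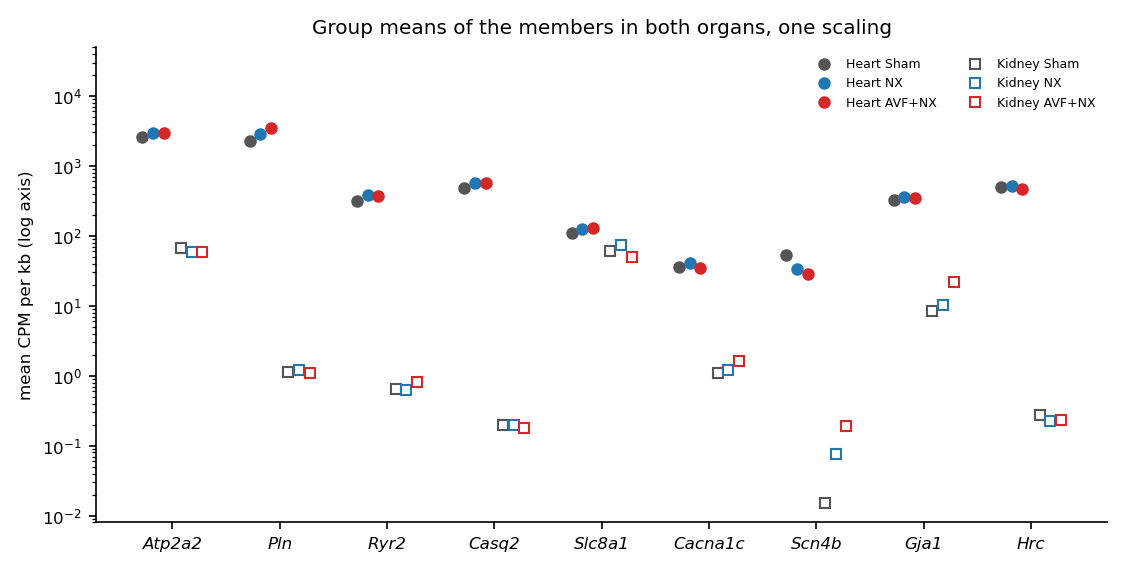
Mean CPM per kilobase (log axis, all 23 libraries scaled together) of each member in the 3 heart groups (filled circles) and the 3 kidney groups (open squares). All 9 members are higher in heart, Slc8a1 by the smallest factor, and the lowest point, Scn4b in sham kidney, rests on 3 counts in 4 libraries.

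In sham rats all 9 members were higher in heart than in kidney, as were 33.2% of the 15222 genes tested over both organs. The members were chosen as genes of the heart muscle cell, so this count follows from the choice and is no test. Slc8a1 differed least, at 333 ± 21.0 CPM in heart (n = 3) and 184 ± 30.6 CPM in kidney (n = 4) on a common scale, a log2 difference of 0.85 (SE 0.14, adjusted p = 1.04e-05, edgeR). Cacna1c, Gja1 and Atp2a2 were 5.04, 5.27 and 5.29 higher on the log2 scale, Ryr2 8.97, and Hrc and Casq2 10.78 and 11.27. Pln was 2045-fold higher. For Scn4b 5918 counts in the 3 sham hearts stood against 3 counts in the 4 sham kidneys. The median of all genes was -0.11 on this scale.

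In kidney, the connexin Gja1 was higher after AVF+NX than in either other group, and the exchanger Slc8a1 was lower than after NX. Of the 9 members, 6 passed the filter on low counts there, so that Casq2 and Hrc, below 2 CPM in every kidney, and Scn4b were not tested. Against sham kidneys 1 of the 6 tested was called after AVF+NX (25.1% of 14322 genes) and 0 after NX (1.31% of genes, with 2488 genes at an unadjusted p below 0.05). AVF+NX against NX gave 2 of 6, 1 in each direction, where 6.07% of genes were called.

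**Figure D5:**
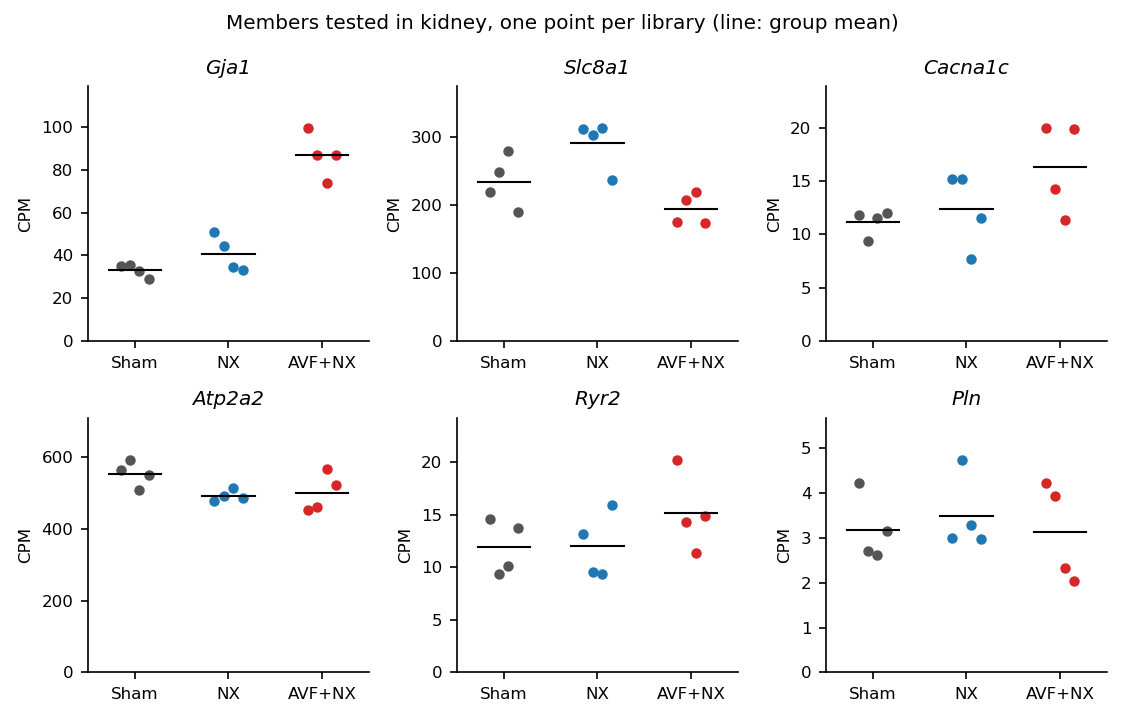
CPM (TMM-scaled within kidney) of the 6 members tested in kidney, 1 point per library and a line at each group mean, with 4 libraries in each group. For Gja1 the 4 AVF+NX kidneys (73.8 to 99.4 CPM) lie above all others, and for Slc8a1 they (174 to 219.5 CPM) lie below all NX kidneys.

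Connexin 43 RNA (Gja1) was at 35.3, 35.4, 32.5 and 28.9 CPM in sham kidneys, 50.8, 44.4, 34.4 and 33.0 CPM in NX kidneys and 99.4, 86.9, 73.8 and 87.1 CPM in AVF+NX kidneys. AVF+NX kidneys overlapped neither group. Gja1 was 2.63-fold higher than in Sham (log2 1.39, SE 0.14, adjusted p = 5.25e-05) and 2.14-fold higher than in NX (log2 1.10, SE 0.14, adjusted p = 0.00296) by edgeR, and both calls held with each library left out in turn and under the alternative fits run, with the RF index as a covariate by the least (adjusted p = 0.0499 against NX). The NX against Sham difference was 0.30 (SE 0.14, adjusted p = 0.295). Macrophage markers rose in 7 of 7 cases in AVF+NX against sham kidneys (summed 484 to 814 against 111 to 145 CPM), T and B cell markers in 6 of 6 (35.5 to 79.2 against 2.89 to 3.87 CPM), fibroblast markers in 4 of 6 (2870 to 6460 against 515 to 777 CPM) and smooth muscle markers in 3 of 6, while 4 of 5 proximal tubule markers fell. Their part in the result for Gja1 was not tested. Cardiomyocyte markers summed to 11.3 to 18.9 CPM in AVF+NX kidneys, with 1 of 11 at 0, and to 17.8 to 29.2 CPM in sham kidneys.

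NCX1 RNA (Slc8a1), which in the kidney is known from the distal tubule, had 218, 248, 279 and 189.5 CPM in sham kidneys, 311, 303, 312 and 236.5 CPM in NX kidneys and 174, 207, 219.5 and 174 CPM in AVF+NX kidneys. AVF+NX kidneys lay below every NX kidney, while both groups overlapped Sham. The difference between AVF+NX and NX was 1.5-fold (log2 -0.58, SE 0.13, adjusted p = 0.0238, edgeR). It lost its call in 5 of 8 fits that left out 1 library, AVF+NX 1 or 4 or NX 1, 2 or 3 (adjusted p = 0.0538 to 0.0774). The call was also lost with the RF index as a covariate (log2 -0.63, adjusted p = 0.129), which left 25 of all genes called, against 870 without it. Against Sham the values were 0.31 for NX (SE 0.13, adjusted p = 0.246) and -0.27 for AVF+NX (SE 0.13, adjusted p = 0.156). The 5 distal nephron markers summed to 4090 to 6650 CPM in AVF+NX, 6690 to 8350 CPM in NX and 6370 to 7450 CPM in sham kidneys, and 1 of the 5 fell between AVF+NX and NX. In Sham, NX and AVF+NX, Umod averaged 3340, 3170 and 2320 CPM and Slc12a1 1720, 2000 and 1650 CPM. Slc12a3 averaged 865, 913 and 546 CPM, Calb1 488, 807 and 507 CPM and Aqp2 438, 496 and 393 CPM. Their part in the result was not tested.

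The remaining members tested in kidney did not pass. Cacna1c had 11.8, 9.38, 11.5 and 12.0 CPM in sham kidneys and 19.9, 14.3, 11.3 and 19.9 CPM in AVF+NX kidneys, where library 3 overlapped Sham. Its log2 difference was 0.55 (SE 0.22, adjusted p = 0.0876, edgeR). Without AVF+NX library 3 it passed (log2 0.70, adjusted p = 0.0244), and the authors' deposited table gives it an adjusted p of 0.0349. Atp2a2 ran from 452 to 592.5 CPM over the 12 kidneys, Ryr2 from 9.38 to 20.2 CPM and Pln from 2.04 to 4.73 CPM, with all groups overlapping.

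Scn4b was close to absent from kidney: its counts were 3, 0, 0 and 0 in sham kidneys, 0, 14, 0 and 3 in NX kidneys and 7, 21, 7 and 7 in AVF+NX kidneys. The 42 counts of AVF+NX against the 3 of Sham give a ratio of CPM of 15, with an exact 95% Poisson interval of 4.79 to 75.6 that covers counting error only. With counts this low, the fitted value depends on the prior count.

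The counts of other list genes in kidney stand beside 25.1% of all genes called in AVF+NX against Sham. The lists gave 2 higher and 1 lower of 17 calcium store genes after AVF+NX against Sham, among them the SERCA3 gene Atp2a3 (log2 0.55, adjusted p = 0.000735) and the IP3 receptor Itpr1 (log2 -0.44, adjusted p = 0.0014), by edgeR. Membrane calcium genes gave 5 higher and 3 lower of 25, with the store sensor Stim1 (log2 0.35, adjusted p = 0.006) and the channel Cacna1a (log2 -0.84, adjusted p = 0.0077). Sodium genes gave 4 higher and 2 lower of 17, with Scn2b up from 0.242 ± 0.20 to 2.15 ± 0.456 CPM (log2 3.15, adjusted p = 0.00231). Gap junction and disc genes gave 3 higher and 1 lower of 15, with desmin (Des) up from 19.5 ± 4.32 to 44.1 ± 12.8 CPM (log2 1.17, adjusted p = 0.00236) and connexin 40 (Gja5) down (log2 -0.55, adjusted p = 0.00928). Calcium regulators gave 2 higher and 1 lower of 19, with Camk2d, a calmodulin kinase, up (log2 0.55, adjusted p = 0.0049). Mitochondrial calcium genes gave 2 higher and 1 lower of 8, with Micu3 down (log2 -0.71, adjusted p = 0.00525). Mcub was up from 0.593 ± 0.303 to 1.77 ± 0.673 CPM (log2 1.60, adjusted p = 0.0227). It was also higher in heart, but low in both organs. Its call was lost in 4 of 8 kidney and 3 of 7 heart fits with 1 library left out. With the RF index as a covariate it was lost in both organs.

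Between AVF+NX and NX kidneys 1 of 17 calcium store genes, 1 of 25 membrane calcium genes and 2 of 17 sodium genes were called, and 0 of 19 regulators, 0 of 8 mitochondrial genes and 0 of 15 gap junction and disc genes, beside 6.07% of all genes. Atp2a3 (log2 0.58, adjusted p = 0.00507) and Scn2b (log2 1.90, adjusted p = 0.0465) were higher, and Atp2b2, a plasma membrane calcium pump (log2 -0.53, adjusted p = 0.0427), and Gpd1l (log2 -0.30, adjusted p = 0.036) were lower by edgeR. Of these 4, Atp2a3 kept its call with each library left out in turn and the other 3 did not. With the RF index as a covariate 0 of the 4 kept theirs, where 25 of all genes were called, against 870 without it. Between NX and sham kidneys no list gene was called.

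The response of Gja1 differed between the organs. The heart effect minus the kidney effect of AVF+NX against Sham was -1.26 (SE 0.21, adjusted p = 0.000348) and of AVF+NX against NX -1.12 (SE 0.20, adjusted p = 0.00761), tested in 1 edgeR fit of all 23 libraries. That fit treats hearts and kidneys as independent, and whether they came from the same rats was not tested. For Scn4b the AVF+NX against Sham difference was -4.61 (SE 1.09, adjusted p = 0.00451), a value that rests on the 3 counts of sham kidneys. It ran from -7.51 without sham kidney 1, which holds those counts and leaves a fitted value that is set by the prior count and is no bound, to -4.01 without AVF+NX kidney 2. That gave 2 of 9 members called for AVF+NX against Sham (27.9% of genes) and 1 of 9 for AVF+NX against NX (1.12%). NX against Sham gave 0 of 9 (0.158%, with 2523 genes at an unadjusted p below 0.05). Scn4b, Casq2 and Hrc, not tested in kidney alone, entered this fit with counts that are high only in heart. The Scn4b call is therefore a description of counts and no test of its response in kidney. Pln, whose RNA rose in heart, had an organ difference of 0.61 (SE 0.33, adjusted p = 0.172), and Slc8a1 had 0.51 (SE 0.19, adjusted p = 0.0519) against Sham and 0.62 (SE 0.19, adjusted p = 0.0916) against NX.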

How the data were processed

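RNA sequencing libraries of 11 hearts and 12 kidneys were analysed, poly(A)-selected and strand-specific per the labels' protocols. Per gene, the authors deposited raw read counts (whole numbers), with coordinates and exon length. The submitters' processing notes list STAR 2.5.2b, Subread 1.5.2, Trimmomatic 0.36 and featureCounts. Neither genome build nor strand setting is given in the sources used here. The authors also deposited tables of log2 fold changes and p-values with a normalised signal per library. That signal was checked to equal the counts divided by 1 factor per library. Symbols came from these tables, which name 15123 of 32552 identifiers.

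Counts were fitted per organ with edgeR 4.0.16 in R 4.3.3 (quasi-likelihood test, TMM scaling, filterByExpr, all 3 groups in 1 fit), with p-values adjusted by Benjamini-Hochberg over all genes tested (12794 in heart, 14322 in kidney, 15222 over both) and called below 0.05. CPM values are scaled within an organ unless stated. The edgeR p-values set differences between groups against the spread between the labelled biological replicates. The steps were tested on simulated data. Alternatives used DESeq2 1.42.0, limma 3.58.1, other scalings, filters and covariates, a replicate block and single libraries left out. No 2 libraries agreed within sampling noise (lowest chi-square per degree of freedom 7.07).

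The members and lists were chosen with earlier results of these data known. All members are named, with the called list genes of smallest p (at most 4 per list in heart and 2 in kidney, or 2 uncalled ones where a heart list had none, of which only some are printed). Some genes that this rule picked are not reported here. Promoters were planned only for members that move together, and 3 are shown although the members did not. The ratio to cardiomyocyte markers was added after seeing the data. Coordinates of promoters are those of the RefSeq table.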

Additional observations from a re-analysis of the deposited data

Results flagged for a closer look

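The effect of AVF+NX differed between heart and kidney for Gja1, by -1.26 against Sham and -1.12 against NX on the log2 scale, and for Scn4b by -4.61 against Sham. The Scn4b value rests on 3 counts in sham kidneys. Scn4b did not pass the low-count filter in kidney alone and entered the joint fit through its heart counts.

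Single libraries stood apart from the rest of their group in 6 of 45 groups checked with Dixon's test, which flags about 1 in 20 by chance. For Slc8a1 these were AVF+NX heart 4 with 272 CPM (the nearest library had 297) and NX kidney 4 with 236.5 CPM (nearest 303). NX kidney 4 was also the deepest kidney library, at 18782085 counts. For Cacna1c it was sham kidney 2 with 9.38 CPM (nearest 11.5). For Scn4b, 1 kidney in each group was highest, at 0.334 CPM in Sham (library 1, 3 counts), 1.51 CPM in NX (library 2, 14 counts) and 2.17 CPM in AVF+NX (library 2, 21 counts). The cause was not tested.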

How the results depend on the processing

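Pln and Scn4b in heart AVF+NX against Sham kept direction and call with RLE scaling, no count filter, fits of the compared groups only, the length trend removed, DESeq2 and limma voom (Pln adjusted p = 0.00204 to 0.0212). With the log2 total count or the RF index as a covariate 0 members were called there, beside 2 and 179 of all genes. DESeq2 called 1 member in heart NX against Sham (Scn4b), beside 344 of all genes. For the organ difference DESeq2 called 4 members for AVF+NX against Sham (4914 of all genes, against 4248 by edgeR) and 2 for AVF+NX against NX (661 of all genes, against 170 by edgeR). Scn4b, among the 4, entered that fit through its heart counts. With the RF index 1 member was called in kidney AVF+NX against NX, beside 25 of all genes (870 in the main fit). The cause was not tested. The fit with the replicate number as a block called Slc8a1 in kidney NX against Sham (1 member, log2 0.32, adjusted p = 0.0456) and in AVF+NX against Sham (2 members, log2 -0.26, adjusted p = 0.0268), and 2 members for the organ difference of AVF+NX against NX, and changed no other count of members by over 1.5 times. Calls rose over all genes too, in the same order to 669, 4226 and 268, from 187, 3594 and 170 in the main fit. Same-numbered replicates correlated at -0.116 to 0.124 in heart (median -0.008, other pairs 0.008) and -0.075 to 0.382 in kidney (median 0.170, other pairs -0.011). Since not every pair exceeded 0.1 the numbers were not taken to pair samples, although the kidney median is higher for shared numbers, and 6 of 12 kidney and 2 of 11 heart samples correlated best with their own number.

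With 1 library left out, the members called ranged from 1 to 2 in heart AVF+NX against Sham, 0 to 1 in heart NX against Sham, 1 to 2 in both kidney comparisons with AVF+NX, 2 to 4 for the organ difference of AVF+NX against Sham and 1 to 2 for that against NX. Of 21 list genes that the naming rule picked in heart AVF+NX against Sham 10 kept their call in every such fit.

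Members near 0 changed sign. Hrc in heart NX against Sham went from -0.0088 to 0.0018 with RLE, 0.0115 with no filter, 0.0021 with DESeq2, 0.0065 with depth, 0.0040 with the length trend removed and 0.0067 with the compared groups only. Slc8a1 in heart AVF+NX against NX went to -0.0016 with RLE, -0.0019 with DESeq2, -0.13 with depth, -0.0894 with the RF index and -0.0167 with the length trend removed. In heart AVF+NX against Sham the depth covariate gave -0.0412 for Slc8a1 and -0.0390 for Gja1, the RF index gave -0.0357 for Atp2a2, -0.0841 for Slc8a1 and 0.0638 for Cacna1c, and removing the length trend gave -0.0130 for Atp2a2 and -0.0858 for Ryr2. In kidney, Ryr2 after NX against Sham was -0.0053 with depth and -0.0155 with the RF index, which also gave 0.24 and 0.23 for Pln in AVF+NX against Sham and against NX and -0.0804 for Atp2a2 against NX. Leaving out single libraries gave, in heart AVF+NX against NX, -0.0771 to 0.0288 for Atp2a2, -0.12 to 0.0201 for Casq2, -0.15 to 0.0197 for Gja1 and -0.0775 to 0.0987 for Slc8a1. In heart AVF+NX against Sham it gave -0.21 to 0.0287 for Cacna1c, -0.0370 to 0.14 for Gja1 and -0.0199 to 0.33 for Ryr2, and in heart NX against Sham -0.0399 to 0.0567 for Hrc. In kidney it gave -0.0209 to 0.0704 for Atp2a2 and -0.33 to 0.0273 for Pln in AVF+NX against NX, -0.19 to 0.15 for Pln in AVF+NX against Sham, and -0.0414 to 0.30 for Pln and -0.15 to 0.13 for Ryr2 in NX against Sham. In kidney, Scn4b, Casq2 and Hrc had at most 21 counts a library, which limits the precision of their values.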
